A study of Sesbania grandiflora with 21 samples.

Results

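Leaves of Sesbania grandiflora, a legume tree, labelled DS+Y-S were set against leaves labelled ck. The 3 libraries whose titles carry DS+Y-S and the 3 whose titles carry ck make 6 of the 21 libraries of the series. Drought and salt stress in combination are the subject named by the title of the series, the labels do not expand the letters, and ck, the label without a treatment code, was taken as the control. Tissue is given as leaf for every library, and no label gives cultivar, age, dose, duration or pooling of plants. The design text of the series counts 4 groups, while the sample titles give 7, and the titles were followed. The other 5 groups, DS+Y-L, DS-S, DS-L, Y-S and Y-L with 3 libraries each, shared the estimate of the spread. Because ck carries neither S nor L, the combined treatment and what S stands for cannot be told apart in DS+Y-S against ck. Whether libraries with the same label came from separate plants is not stated, so p-values reflect only how these libraries scatter, which may be technical. In bulk leaf RNA, fewer cells of a type and less RNA per cell cannot be told apart.

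Drought and salt both lower the water a leaf can draw on, and salt adds the load of sodium and chloride ions. As background from other plants, leaves answer with abscisic acid signalling, closure of stomata, compatible solutes, protective proteins of the late embryogenesis abundant and dehydrin families, ion transporters and enzymes that remove reactive oxygen, while genes of photosynthesis and growth are often lowered. Genes of this series were assembled from the reads without a genome and carry identifiers with no gene name or description, so none of these pathways, and no leaf marker gene, could be looked up. The results therefore describe how many assembled genes differed, how far, and in which libraries. The 2 highest-ranking genes in each direction are given by identifier.

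The 3 DS+Y-S libraries held 17205301, 17421337 and 17994704 counts, against 18450395, 19002636 and 18403292 in ck, within the range of 16431940 to 20138058 over all 21. DS+Y-S 1 stood apart from every other library. It had counts on 36755 of the 97500 assembled genes, against 57353 in DS+Y-S 2, 53196 in DS+Y-S 3 and 54120, 60733 and 61117 in ck. At 10 or more counts it was not short of genes, with 32734, against 30490 in DS+Y-S 2 and 28128 in DS+Y-S 3. In ck 1, 2 and 3 these were 27579, 33088 and 31524. Genes counted once were almost missing from DS+Y-S 1, with 489 of them, against 4705 to 8533 in the other 20 libraries. Its 4626 genes with 5 or more counts and none in any other library held 0.651% of its counts, while in the other 20 libraries such genes numbered 16 to 194. The deposited FPKM values, which scale counts to transcript length and library size, summed to 1977619 in DS+Y-S 1 and to between 1172736 and 1511656 in the others. Results are given with and without DS+Y-S 1. A pair of further libraries, DS-S 1 and DS-L 1, are outside the comparison but went against their labels in the genes described next.

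The missing counts of DS+Y-S 1 lay in rare transcripts. After genes with too few counts for a test were removed, 38211 genes were left, and 29.1% of them were at 0 in DS+Y-S 1, against 2.04% in DS+Y-S 2, 4.43% in DS+Y-S 3 and 4.83%, 2.87% and 2.02% in ck 1, 2 and 3. Among genes averaging under 1 CPM, the count scaled to library size by TMM (trimmed mean of M-values) and expressed per 1e+06 counts, over the 21 libraries, 63.7% were at 0 in DS+Y-S 1. The share was 27.1% at 1 to 5 CPM, 3.96% at 5 to 20 CPM and 0.326% at 20 to 100 CPM, and of the 2121 genes at 100 CPM or more none was at 0. In the other 5 libraries compared, no class had more than 11.5% of genes at 0.

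**Figure D1:**
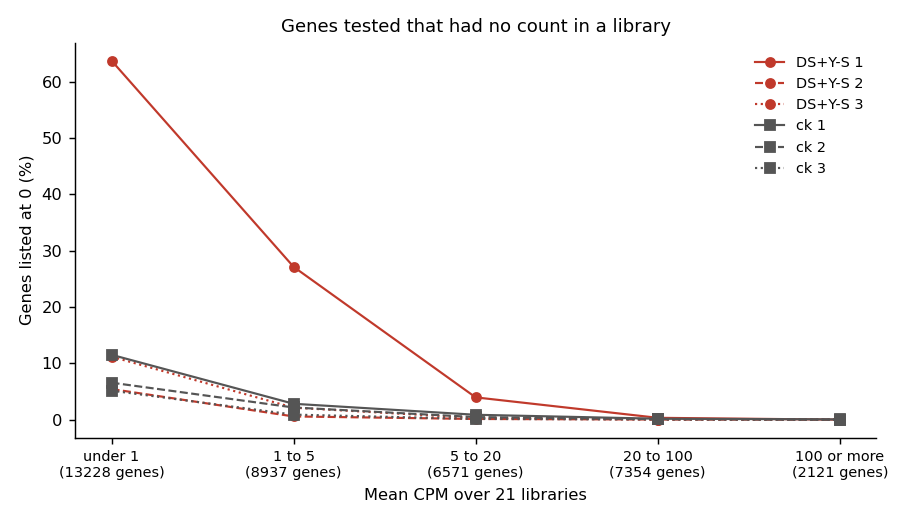
Share of tested genes listed at 0, in percent, by class of mean CPM over 21 libraries, with 1 line for each DS+Y-S (circles) and ck (squares) library. DS+Y-S 1 reaches 63.7% in the lowest class, where the other 5 libraries lie between 5.15% and 11.5%, and the lines meet above 20 CPM.

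The sharpest differences were genes present in every library of one group and in none of the other. With a minimum of 5 counts, 49 of the 97500 genes (0.0503%) were counted in all 3 DS+Y-S libraries and at 0 in all 3 ck libraries, and 107 (0.11%) were at 0 in all 3 DS+Y-S libraries and counted in all 3 ck libraries. The 49 genes together had 1653, 1928 and 1976 counts in DS+Y-S 1, 2 and 3. The 107 genes together had 4330, 2812 and 2765 counts in ck 1, 2 and 3. Without DS+Y-S 1 there were 117 and 116 such genes. The 49 became 81 without DS+Y-S 2, 114 without DS+Y-S 3 and 77 without ck 3, and the 107 became 456 without DS+Y-S 2, 189 without DS+Y-S 3, 219 without ck 1 and 208 without ck 3. Because every library must meet the rule, leaving 1 out can only keep or raise these counts.

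The 107 genes absent from DS+Y-S were also nearly absent from the other treated leaves, except in certain libraries. With 5 or more counts, 93 of the 107 were present in DS-S 1 and 54 in DS-L 1, against 15 in Y-L 2 and at most 8 in any other library outside ck. Their summed counts were 3087 in DS-S 1 and 4161 in DS-L 1, both inside the range of ck, 492 in Y-L 2, and 27 to 115 in the other 12 treated libraries outside DS+Y-S. Within a treatment the split was complete for most of them: 80 had 5 or more counts in DS-S 1 and none in DS-S 2 or DS-S 3, and 47 had 5 or more in DS-L 1 and none in DS-L 2 or DS-L 3. In 41 of the 107 every library but ck and DS-S 1 was at 0, in 64 every library but ck, DS-S 1 and DS-L 1, and 0 of the 107 were counted in ck alone.

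The mirror image held for the 49 genes absent from ck. At 0 in DS-S 1 were 45 of them and in DS-L 1 46, with 44 at 0 in both, while Y-L 2 lacked 28 and no other treated library lacked more than 7. Their summed counts were 15 in DS-S 1 and 28 in DS-L 1, and between 1237 and 2746 in the other 13 treated libraries outside DS+Y-S. In 16 of the 49, every library except ck, DS-S 1 and DS-L 1 had at least 1 count. The 28 genes missing from Y-L 2 summed to 596, 390 and 572 counts in DS+Y-S 1, 2 and 3 and to 95 to 933 over all 15 libraries that had them, and each of ck 1, 2 and 3, DS-S 1, DS-L 1 and Y-L 2 stood at 0.

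**Figure D2:**
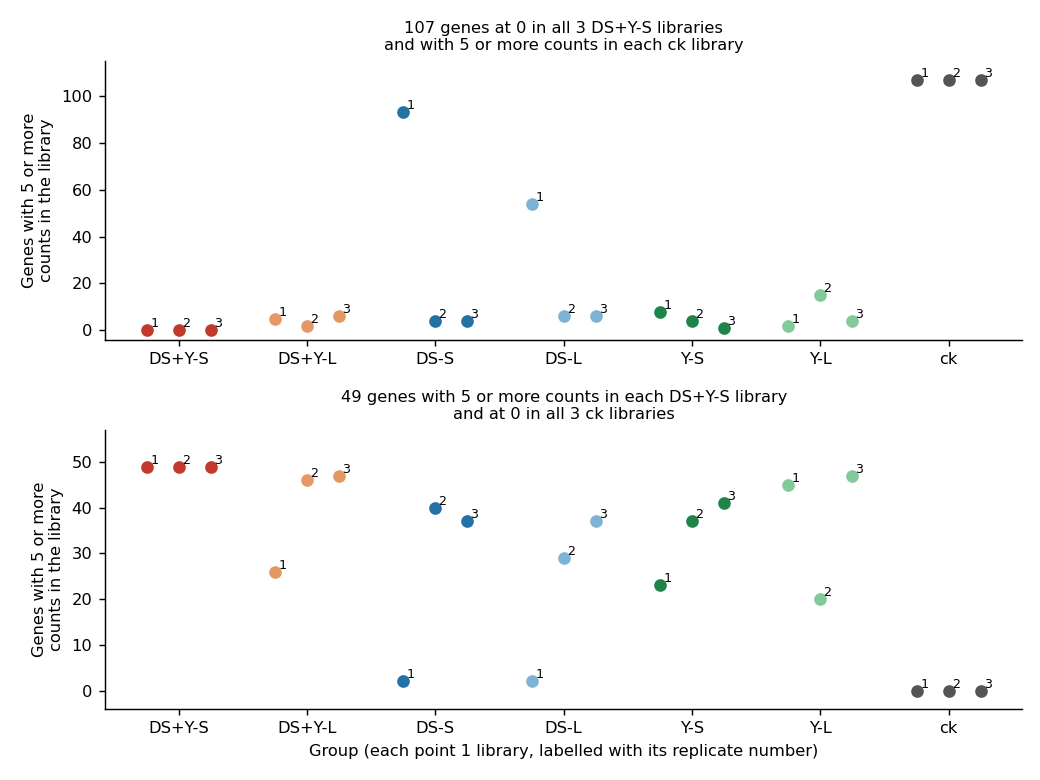
Number of genes with 5 or more counts in each of the 21 libraries, for the 107 genes absent from DS+Y-S (top) and the 49 absent from ck (bottom), which the 6 compared libraries chose. Among the 15 other libraries, DS-S 1 with 93 of the 107 genes sits near ck. DS-L 1 with 54 of them lies between ck and the other DS-L libraries, which have 6 each. With 2 each of the 49 genes, DS-S 1 and DS-L 1 both sit near ck and away from the other libraries of their own groups.

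The most abundant gene of each set shows the size of these differences. The one absent from ck had 746, 1214 and 1010 counts in DS+Y-S 1, 2 and 3 and 0 in ck 1, 2 and 3. It also had 0 in DS-S 1 and DS-L 1, and 746 to 1375 counts in every one of the 16 libraries that had it. Its mean was 57.4 ± 19.0 CPM in DS+Y-S (SD, n = 3), and with a floor of 3 counts over the 3 ck libraries, 0.0524 CPM, it was at least 1064-fold higher. The one absent from DS+Y-S had 0 in each DS+Y-S library and 537, 455 and 497 counts in ck 1, 2 and 3. It had 488 counts in DS-S 1, 1333 in DS-L 1, then 225 in Y-L 2, 47 in DS+Y-L 1 and at most 1 in the other 11. Against its 26.7 ± 6.66 CPM in ck (SD, n = 3), a floor of 3 counts over the DS+Y-S libraries, 0.0564 CPM, put it at least 462-fold lower in DS+Y-S. Floors cover counting error only.

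These sets were chosen by the values of DS+Y-S and ck, so no test in that contrast supports them. edgeR's quasi-likelihood test called none of the 43 of the 49 and 68 of the 107 that passed the filter on low counts, with adjusted p from 0.389 to 0.525 and from 0.402 to 0.559, while all 43 and all 68 had an unadjusted p under 0.05. The spread it uses is estimated over all 7 groups, DS-S and DS-L with their unlike libraries included. The most abundant gene absent from ck had an edgeR adjusted p of 0.389 over all 21 libraries and of 6.95e-07 with DS-S 1 and DS-L 1 left out of the fit. The most abundant gene absent from DS+Y-S did not move likewise, with edgeR adjusted p of 0.518 and 0.505. The fit without DS-S 1 and DS-L 1 called 3 genes, all 3 higher in DS+Y-S and all 3 among the 49. Those libraries were left out for their values in these sets, so the lower p is no separate support. DESeq2 called 34 of the 49 and 4 of the 107, against 0.929% of all 38211 genes tested. It set the adjusted p to NA for 6 of the 43 and 43 of the 68 that passed the filter, so the sets are not compared by these calls. Against the same ck libraries, DS+Y-L had 55 genes counted in the group and at 0 in ck, and 135 the other way. These numbers were 42 and 104 for Y-S, 41 and 99 for Y-L, 19 and 87 for DS-L and 10 and 9 for DS-S. The 49 genes came from 49 separate read clusters of the assembly and the 107 from 97, with 1 cluster holding a gene of each set. Close copies and allelic versions of a gene can share or split reads in such an assembly. For these genes treatment and library cannot be told apart.

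Across all genes, edgeR called 0 of 38211 (0%) at an adjusted p under 0.05 for DS+Y-S against ck, in either direction, with 0.151 as the lowest adjusted p. At an unadjusted p under 0.05, 3203 genes (8.38%) passed, 2005 higher in DS+Y-S (5.25%) and 1198 lower (3.14%). DESeq2 called 355 genes (0.929%), 304 higher (0.796%) and 51 lower (0.133%), limma voom with library weights 1 (0.00262%), and edgeR with no filter on low counts 1525 of 97456 (1.56%). Over the genes tested the median log2 fold change was -0.03 and the median absolute one 0.53, below the median standard error of 0.76. Standard errors of edgeR values were computed as the absolute log2 fold change over the square root of F. Leaving out DS+Y-S 1 gave 1 call.

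Without DS+Y-S 1 the filter kept 41105 genes, and edgeR called 1 of them (0.00243%), higher in DS+Y-S, with 0 lower. At an unadjusted p, 3718 passed (9.05%), 2625 higher (6.39%) and 1093 lower (2.66%). DESeq2 called 553 (1.35%), 516 higher (1.26%) and 37 lower (0.09%), voom 2 (0.00487%) and edgeR without the filter 2101 of 92756 (2.27%). The single edgeR call was lost without ck 1, ck 2 or DS+Y-S 3 and when only the 5 libraries compared were fitted. Leaving out DS+Y-S 2 as well gave 34 calls, 31 higher and 3 lower. In that fit DS+Y-S 3 is the lone DS+Y-S library and is assumed to vary like the libraries of other groups. In a separate fit that kept DS+Y-S 2 and 3 and left out DS+Y-S 1, DS-S 1 and DS-L 1, 17 genes were called, all 17 higher in DS+Y-S, 13 of them at 0 in every ck library and 11 among the 49. Of the DESeq2 calls, 259 were shared by the analyses with and without DS+Y-S 1, which is 73.0% of the 355 and 46.8% of the 553.

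On the lower side DS+Y-S 1 was the extreme library in most genes. It was the lowest of the 3 DS+Y-S libraries in 898 of the 1198 genes lower at an unadjusted p, and at 0 in 603 of them. Of the 51 genes that fell in DESeq2, it was lowest in 39 and at 0 in 22. On the higher side the peak was spread over the group, with DS+Y-S 1, 2 and 3 the highest in 582, 720 and 703 of the 2005 genes, though DS+Y-S 1 was at 0 in 319 of them. Among the 304 that rose in DESeq2 the highest library was DS+Y-S 1 in 49, DS+Y-S 2 in 154 and DS+Y-S 3 in 101, and 59 of the 304 were at 0 in every ck library and 34 at 0 in DS+Y-S 1.

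Many of the genes whose libraries did not overlap were likewise at 0 in DS+Y-S 1. At 1 or more on the log2 scale, all 3 DS+Y-S libraries lay above all 3 ck libraries in 1045 genes (2.73%) and below them in 1820 (4.76%). In 1276 of the 1820 (70.1%), DS+Y-S 1 was at 0, against 29.1% of all 38211 genes tested. With DS+Y-S 2 and 3 alone against ck, 3127 of 41105 lay above (7.61%) and 2997 below (7.29%), of which 904 and 1464 were shared with the sets from all 6 libraries. Without a fold minimum, 11.2% of genes separated in either direction with DS+Y-S 1 and 25.4% without it. If labels were shuffled, 3 libraries would separate from 3 with a probability of 0.1, and fewer libraries do so more often. Larger counts with fewer libraries are therefore not read as larger differences. On the 38211 genes, the 1045 became 1658 without DS+Y-S 2, 2021 without DS+Y-S 3 and 1972 without ck 3. The 1820 became 4973 without DS+Y-S 2, 3447 without DS+Y-S 3, 2956 without ck 1 and 3349 without ck 3. Set against all 18 other libraries, the DS+Y-S libraries were above every one in 22 of 38211 genes and below in 39. DS+Y-S 2 and 3 alone were above every one in 178 of 41105 genes and below in 118. How many genes shuffled labels would give here was not counted, so these genes are not read as particular to DS+Y-S.

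TRINITY_DN28906_c0_g1 was the 1 gene that rose in edgeR's test without DS+Y-S 1, and it did not pass with that library. It had 13.8, 32.2 and 36.4 CPM in DS+Y-S 1, 2 and 3 and 3.35, 2.42 and 6.83 CPM in ck 1, 2 and 3. Every DS+Y-S library was above every ck library, and DS+Y-S 1 was the lowest of its group. The means were 27.5 ± 12.1 CPM in DS+Y-S and 4.20 ± 2.33 CPM in ck (SD, n = 3 each). Leaving DS+Y-S 1 out, edgeR gave a log2 fold change of 3.002 (SE 0.39, adjusted p = 0.0248), and it was 2.71 with it (SE 0.42, edgeR adjusted p = 0.151). DESeq2 called it in both analyses, with adjusted p of 1.79e-09 and 7.56e-07. With DS+Y-S 1 kept, voom (adjusted p = 0.00876) and edgeR with no filter on low counts (adjusted p = 2.89e-05) also called it.

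The level of TRINITY_DN28906_c0_g1 in CPM was above every ck library in 15 of the 15 other treated libraries, at 7.79 to 17.6 CPM. In FPKM it was above every ck library in 8 of the 15, and ck 3 stood at 19.7. Below the 27.5 CPM of DS+Y-S came DS-L with a mean of 16.8 CPM, DS+Y-L with 14.8, Y-S with 13.4, DS-S with 12.6, Y-L with 11.1 and ck with 4.20. DS+Y-S exceeded DS-S by 1.13, Y-S by 1.04 and DS+Y-L by 0.89 on the log2 scale, none past the test (edgeR adjusted p = 0.842, 0.986 and 0.437). Its FPKM values gave a smaller difference than its counts. They were 28.3, 57.8 and 35.7 in DS+Y-S 1, 2 and 3 and 9.56, 7.15 and 19.7 in ck 1, 2 and 3, so the groups still did not overlap. The log2 ratio of group means was 1.74 in FPKM and 2.71 in CPM. The transcript length that a count and its FPKM imply was 533 to 908 bases in DS+Y-S, 300 to 390 bases in ck and 460 to 997 bases in the other 15 libraries. Counts and FPKM parted by as much or more in 3.57% of 37851 genes, and what the shorter length in ck does to the count was not tested.

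TRINITY_DN12463_c0_g1, the next higher gene, did not pass edgeR's test with or without DS+Y-S 1. It had 10.8, 63.3 and 26.7 CPM in DS+Y-S 1, 2 and 3 and 3.35, 6.25 and 3.75 CPM in ck 1, 2 and 3. The groups did not overlap, which the naming rule required, and DS+Y-S 2 was far above the rest of its group. Means were 33.6 ± 26.9 CPM in DS+Y-S and 4.45 ± 1.57 CPM in ck (SD, n = 3 each), with a log2 fold change of 3.30 without DS+Y-S 1 (SE 0.53, edgeR adjusted p = 0.0932) and 2.91 with it (SE 0.59, edgeR adjusted p = 0.336). It passed in DESeq2, with adjusted p of 2.59e-05 and 0.000518, and in edgeR without DS+Y-S 1, DS-S 1 and DS-L 1 (adjusted p = 0.0459). With no filter on low counts edgeR called it too, at an adjusted p of 2.09e-08 without DS+Y-S 1 and 5.52e-06 with it. In FPKM the log2 ratio was 2.83, close to the 2.92 of CPM. DS-L followed at 16.3 ± 1.16 CPM, Y-S at 14.96 ± 1.37, DS-S at 13.7 ± 10.8, DS+Y-L at 10.4 ± 4.63 and Y-L at 7.27 ± 1.21 (SD, n = 3 each). Of these 15 libraries, 13 were above every ck library in CPM and 11 in FPKM.

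TRINITY_DN651_c1_g1 was lower in DS+Y-S without passing edgeR's test. It had 64.9, 42.5 and 7.24 CPM in DS+Y-S 1, 2 and 3 and 128, 153 and 149 CPM in ck 1, 2 and 3. The ck libraries lay close together, while the DS+Y-S libraries were spread widely and DS+Y-S 3 was lowest. Means were 38.2 ± 29.1 CPM in DS+Y-S and 143 ± 13.7 CPM in ck (SD, n = 3 each). The log2 fold change was -2.57 without DS+Y-S 1 (SE 0.61, edgeR adjusted p = 0.193) and -1.91 with it (SE 0.55, edgeR adjusted p = 0.416). DESeq2 called the gene without DS+Y-S 1, with an adjusted p of 0.00345, and not with it, at 0.0616. Leaving out DS+Y-S 2 as well as DS+Y-S 1, so that DS+Y-S 3 stood alone, gave -4.31 (edgeR adjusted p = 0.0357), and with no filter on low counts edgeR called the gene without DS+Y-S 1 and with it (adjusted p = 2.16e-05 and 0.000618). DS-S was the group nearest to ck, with 2 of its 3 libraries inside the range of ck and a mean of 117 ± 47.6 CPM (SD, n = 3). Y-S averaged 45.7 CPM, DS-L 36.3 CPM, Y-L 34.2 CPM and DS+Y-L 16.01 CPM.

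TRINITY_DN5925_c5_g1, a long transcript of 10241 implied bases, was also lower without passing edgeR's test. It had 103, 67.7 and 45.5 CPM in DS+Y-S 1, 2 and 3 and 165, 123 and 218 CPM in ck 1, 2 and 3. The groups did not overlap, which the naming rule required, although DS+Y-S 1 lay close to ck 2. Means were 72.1 ± 28.9 CPM in DS+Y-S and 169 ± 47.3 CPM in ck (SD, n = 3 each). The log2 fold change was -1.61 without DS+Y-S 1 (SE 0.38, edgeR adjusted p = 0.193) and -1.23 with it (SE 0.35, edgeR adjusted p = 0.416), and DESeq2 gave adjusted p of 0.00765 and 0.0889. With no filter on low counts edgeR called it without DS+Y-S 1 (adjusted p = 0.0282). Group means descended over DS-L at 110 CPM, DS-S at 90.8, DS+Y-S at 72.1, Y-S at 61.5, DS+Y-L at 51.9 and Y-L at 49.6, and 13 of 15 libraries outside DS+Y-S and ck were below every ck library.

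**Figure D3:**
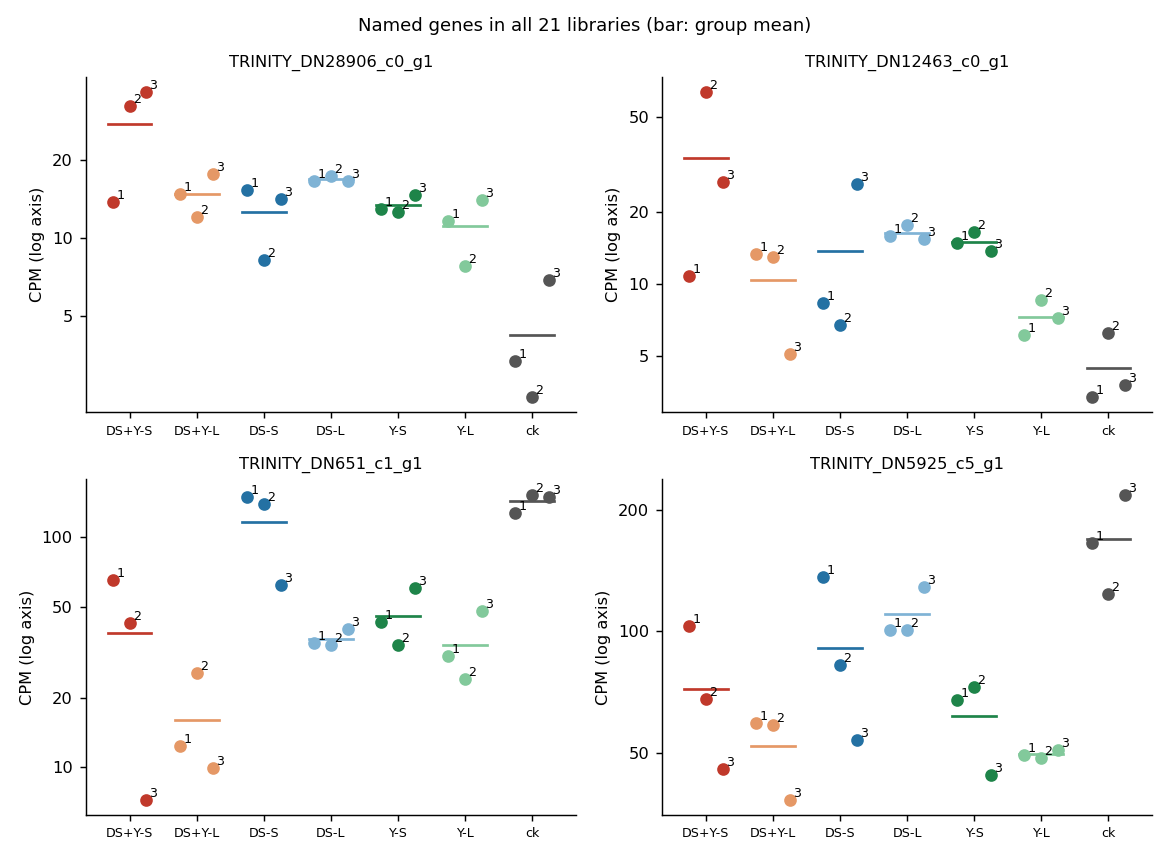
CPM on a log axis in all 21 libraries for the 2 genes higher (top) and 2 lower (bottom) in DS+Y-S than in ck, with bars at the group means. All 3 DS+Y-S libraries lie beyond all 3 ck libraries in each panel, which the naming rule required except for the called gene TRINITY_DN28906_c0_g1. In each panel DS+Y-S 1 is the library of its group nearest to ck. The genes were ranked by the fit without DS+Y-S 1, which can favour such genes.

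DS+Y-S 1 was then compared over genes that the fit without it had placed above or below ck. It took no part in those p-values, but it did count in the filter that kept the 38211 genes and in the mean CPM of each class. Of the 2625 genes higher at an unadjusted p without it, 2477 were among the 38211, and their median log2 difference from the ck mean was -0.03 in DS+Y-S 1, against 1.83 in DS+Y-S 2 and 1.96 in DS+Y-S 3, the libraries that chose them. DS+Y-S 1 was above the ck mean in 45.5% of these genes and in 37.2% of all genes tested. The gap was also wide among abundant genes. Among the 874 of them that averaged 20 CPM or more the median was 0.04 in DS+Y-S 1, against 1.12 and 1.69 in DS+Y-S 2 and 3, and DS+Y-S 1 was above ck in 51.5%, against 39.2% of all genes at that level. Among the 208 at 100 CPM or more, where no gene was at 0 in DS+Y-S 1, the medians were -0.06, 1.21 and 1.99. On the lower side, 1016 genes had a median of -0.60 in DS+Y-S 1, against -1.15 and -1.77 in DS+Y-S 2 and 3, with 68.2% below the ck mean, against 62.4% of all genes. At 20 CPM or more, 221 of them had medians of -0.27, -0.68 and -1.34. DS+Y-S 1 was itself shifted below ck, with a median of -0.40 over all genes tested. That median was -0.15 over all genes at 20 CPM or more and -0.23 at 100 CPM or more.

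The same abundant genes sorted the other treated libraries. Over the 874 higher genes the median difference of DS+Y-L from ck was 1.18, that of DS-L 0.72, of Y-L 0.58, of Y-S 0.57 and of DS-S 0.36. Over the 221 lower genes DS+Y-L had a median of -0.84, Y-L and Y-S of -0.53 each, DS-S of -0.46 and DS-L of -0.42. All these values share the ck libraries, which helped to choose the genes. DS+Y-S 2 and 3 chose the genes as well, so their own places in the order are not read. Of the other 16 treated libraries, DS+Y-S 1 and DS-S 2 had the lowest medians over the higher genes, at 0.04 each, and DS+Y-L 1 the highest, at 1.603.

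**Figure D4:**
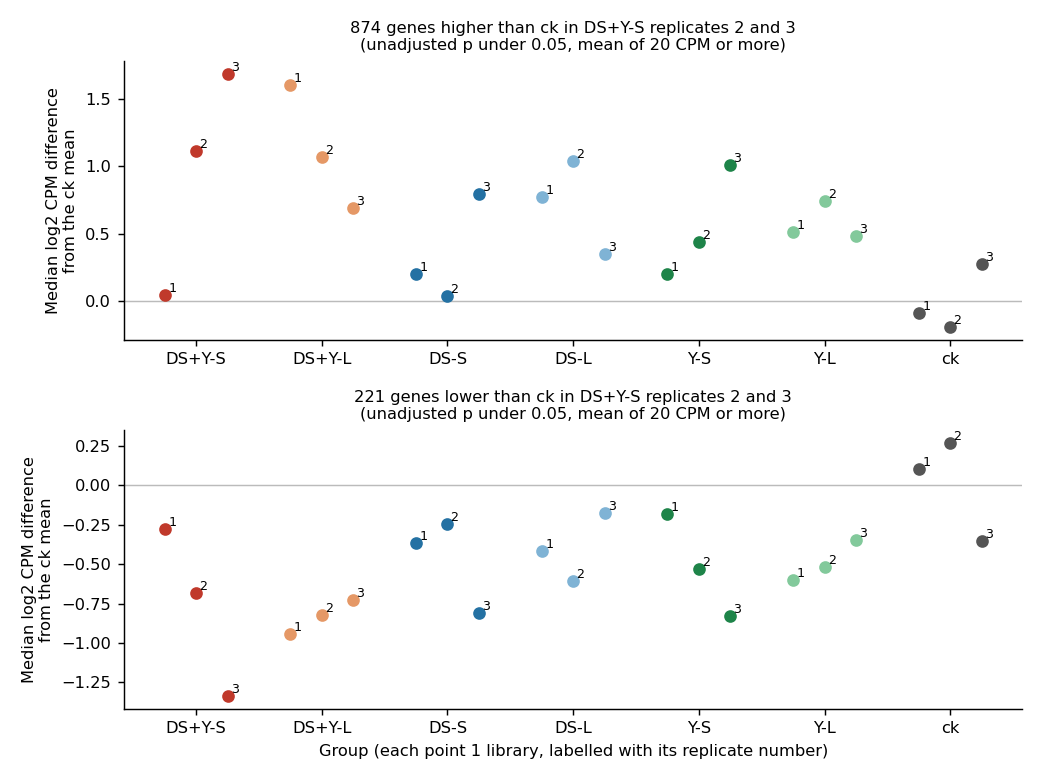
Median log2 CPM difference from the ck mean in each of the 21 libraries, over 874 genes higher (top) and 221 lower (bottom) than ck at an unadjusted p under 0.05 in the fit without DS+Y-S 1, with a mean of 20 CPM or more. DS+Y-S 1 lies at 0.04 and -0.27, against 1.12 and -0.68 for DS+Y-S 2 and 1.69 and -1.34 for DS+Y-S 3. Over all genes at that level, the median of DS+Y-S 1 was -0.15.

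Distances between whole profiles, taken over all tested genes, put DS+Y-S 1 farthest from ck and DS+Y-S 2 nearest. The median absolute log2 CPM difference over the 38211 genes was 0.819 ± 0.243 between a DS+Y-S and a ck library (SD over 9 pairs, which share libraries). The pairs within DS+Y-S were at 0.712, 1.10 and 1.41, and the pairs within ck at 0.547 to 0.588. Against ck, DS+Y-S 1 was at 0.998 to 1.19, DS+Y-S 2 at 0.541 to 0.630 and DS+Y-S 3 at 0.618 to 0.896. DS+Y-S 2 was thus about as far from ck as ck libraries were from each other. No DS+Y-S or ck library had its nearest neighbour in its own group: DS+Y-S 1 was nearest to DS-S 2, DS+Y-S 2 to Y-S 2 and DS+Y-S 3 to DS-S 3. Libraries of ck were nearest to DS-L 3, Y-S 1 and Y-S 2. Over genes averaging 5 CPM or more, the distance between DS+Y-S and ck was 0.533. Distances within groups were not taken over those genes, so 0.533 cannot be set against the values within ck or DS+Y-S.

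**Figure D5:**
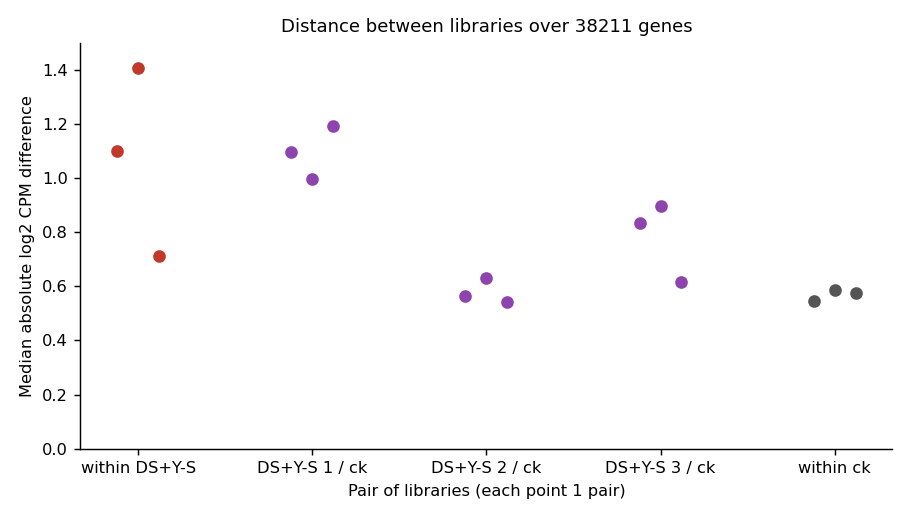
Median absolute log2 CPM difference over 38211 genes for pairs of libraries, each point 1 pair, within DS+Y-S, between each DS+Y-S library and the 3 ck libraries, and within ck. Pairs within DS+Y-S reach 1.41, above the highest pair of DS+Y-S with ck at 1.19, and pairs within ck stay at or under 0.588.

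Set against its single treatments at the same suffix, DS+Y-S had no edgeR call. Against DS-S 0 genes passed (0%), with 2190 at an unadjusted p (5.73%), 35 calls in DESeq2 and 1 in voom. Against Y-S 0 passed, with 1807 unadjusted (4.73%), 21 in DESeq2 and 1 in voom. Against DS+Y-L, the combined treatment at the other suffix, 0 passed, with 4090 unadjusted (10.7%), 482 in DESeq2 and 0 in voom, and edgeR called 211 genes without DS+Y-L 3. Genes higher in DS+Y-S were 1339 of the 2190, 1110 of the 1807 and 2478 of the 4090.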

How the data were processed

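Per the labels' protocols, messenger RNA of leaves was captured with oligo(dT) beads. The authors deposited whole-number counts and FPKM values for 97500 genes with Trinity-style identifiers, per the file headers. Not given in the sources used here are the assembler, aligner, counting program and strand setting. Differences were tested on counts in R 4.3.3 with edgeR 4.0.16 (filterByExpr by group, TMM, glmQLFit and glmQLFTest) over 21 libraries in 7 groups, and again over 20 without DS+Y-S 1, with calls where the p adjusted by Benjamini-Hochberg was under 0.05. Common dispersions were 0.383 and 0.326, a coefficient of variation of 0.619 and 0.571. TMM factors scaled CPM, and log2 CPM used a prior count of 2. FPKM served for the values so named and for implied lengths. Alternatives were DESeq2 1.42.0, which set the adjusted p of 3029 and 7244 genes to NA, limma 3.58.1 voom, and those in the closing section. No library pair within DS+Y-S or ck differed by as little as sampling noise (chi-square per degree of freedom 61.8 to 175).

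Identifiers were named by rule. In each direction a gene called in either fit came first, then the smallest p without DS+Y-S 1 among genes with an absolute log2 fold change of at least 1 in both fits, no overlap and at least 5 CPM on average in the higher group, which 404 higher and 227 lower genes met. At most 2 per direction were printed. The comparison, the rule and the gene sets were chosen with earlier results of these data known, and the values of DS-S 1, DS-L 1 and Y-L 2, the counts in 1 library alone, the fits without these libraries and the FPKM ratios were looked at after the data were seen.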

Additional observations from a re-analysis of the deposited data

How the results depend on the processing

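DS+Y-S against ck had 0 edgeR calls with DESeq2 size factors, a robust spread, a fold minimum or only the 6 libraries. It had 1525 without the low-count filter, 355 in DESeq2, 1 in voom, 3 with DS-S 1 and DS-L 1 left out, 7 with Y-L 2 out too, and 0 to 1 with 1 compared library left out. Without DS+Y-S 1 the 1 call became 2101 without the filter, 553 in DESeq2, 2 in voom, 0 with only the libraries compared, 17 and 16 with those libraries left out, and 0 to 34 with 1 more library left out. No filter, DESeq2 and voom gave 1000, 35 and 1 against DS-S and 692, 21 and 1 against Y-S. Against DS+Y-L no filter gave 1612 and DESeq2 482, and leaving out 1 library 0 to 211. The fits left out in turn gave 0 against DS-S and Y-S. The cause of these shifts was not tested.

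Replicate numbers were not taken as pairs in the main fits. Deviations from the group means correlated at 0.147, 0.0794 and 0.480 for numbers 1, 2 and 3. Unlike numbers were not compared, so these values cannot settle whether the numbers mark pairs. With the replicate number as a block, edgeR called 0 genes against ck (lowest adjusted p 0.0638) and 1 without DS+Y-S 1 (edgeR adjusted p = 0.00535).

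The 49 genes counted in DS+Y-S and at 0 in ck, and the 107 the other way, were 223 and 1310 at a minimum of 1 count. They were 19 and 56 at 10, and 57 to 117 and 116 to 456 with 1 library left out, which cannot lower them. The distance of 0.819 was 0.533 at 5 CPM or more and 0.681 to 0.939 with 1 library left out. Genes without overlap were 385 higher and 211 lower at 5 CPM or more and 1329 to 2921 and 2258 to 4973 with 1 library left out. Without a fold minimum 1626 were higher and 2670 lower. The 4 named genes kept their sign in the 15 alternatives to the fit with DS+Y-S 1, among them the fit without that library. They also kept it in the 15 alternatives to the fit without DS+Y-S 1. The calls they gained are given beside their values. The standard error had a median of 1.15 (log2) under 1 CPM, 0.355 at 20 to 100 CPM and 0.444 at 100 CPM or more. DS+Y-S 1 was at 0 in 63.7% of the genes under 1 CPM, and what sets the standard error there was not tested.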

Other observations

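Genes from the same read cluster of the assembly, which can be copies, alleles or pieces of a gene, were compared in pairs. Over 6143 pairs of tested genes that share a cluster, 56.2% had DS+Y-S against ck differences of the same direction. Among the 115 pairs with both members at an unadjusted p under 0.05 in edgeR it was 97 pairs (84.3%). Without DS+Y-S 1 these values were 56.3% of 6760 pairs and 121 of 136 pairs (89.0%). Such pairs share reads and are not independent.

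The 49 genes absent from ck had a median implied length of 613 bases and the 107 absent from DS+Y-S of 465 bases, against 808 bases over the 38211 genes tested. All 18 treated libraries lay above all 3 ck libraries in 80 of the 38211 genes and below them in 46. Leaving out DS+Y-S 1, which can only keep or raise these counts, made them 132 and 59. How many genes shuffled labels would give was not counted. In the voom fit the library weight was lowest for DS+Y-S 1, at 0.104, against 0.913 for DS+Y-S 2, 0.609 for DS+Y-S 3 and 1.22, 1.25 and 1.02 for ck 1, 2 and 3.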
